A study of Homo sapiens with 11 samples.

Results

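The genes described here are 3 receptors, 1 receptor substrate and 6 binding proteins of the insulin-like growth factor (IGF) system, measured in human cells depleted of Tat-SF1. They are IGF1R, IGF2R, INSR, IRS1, IGFBP2, IGFBP3, IGFBP4, IGFBP5, IGFBP6 and IGFBP7, which is 10 of the 19536 gene symbols on the array. The members were chosen by name, with earlier results of these data known, and their probe sets are all those on the array whose only symbol is a member. The genes of the ligands, IGF1 and IGF2, are not among the 10. Of the 229 member probe sets, 214 had an estimate on all arrays and 159 passed the filter on dim probe sets and entered gene values. IGFBP4 and IGFBP6 kept too few probe sets for a gene value, so 8 of the 10 genes have one, of 14579 in all.

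The IGF ligands bind IGF1R, a receptor tyrosine kinase closely related to the insulin receptor INSR, and the active receptors phosphorylate adaptor proteins such as IRS1, which recruit PI3-kinase and start AKT signalling. IGF2R, the cation-independent mannose 6-phosphate receptor, has no kinase. It clears IGF2 from the cell surface and carries newly made enzymes to lysosomes. The binding proteins are secreted carriers that hold the ligands in the medium, limit or extend their access to the receptors, and are released from them by proteases.

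The cells were T-REx-293, which derive from HEK293, a line of human embryonic kidney origin, and express an introduced plasmid when given tetracycline. All cells also stably carried a green fluorescent protein (GFP) plasmid, and all were given 2.5 µg/mL tetracycline for 72 h. The knockdown group held 3 arrays of shRNA A and 3 of shRNA B, both against Tat-SF1, and the control group held 3 arrays of an shRNA against GFP and 2 of an empty vector. These 11 exon arrays are biological replicates, per the series design, after the third empty vector replicate failed quality control. Whether each line was 1 clone is not given in the sources used here. Tat-SF1 is a nuclear protein linked to transcription elongation and to the spliceosome, and its depletion was compared with the controls at the level of transcripts and of exons.

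Values are on the deposited log2 scale, where the array medians are between 7.902 and 7.905 and dim probe sets crowd around that level. The gene value is the median of the gene's probe sets, and a difference is knockdown minus control. Differences of genes near this level may be compressed, and the levels of different genes are not compared, since they come from different probes. In RNA from whole cultures, fewer cells expressing a gene and less RNA per cell cannot be told apart.

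HTATSF1, the gene of Tat-SF1, had gene values of 8.29, 8.21 and 8.22 with shRNA A and 8.11, 8.19 and 8.21 with shRNA B. The controls gave 8.53, 8.63 and 8.49 with the GFP shRNA and 8.54 and 8.32 with the empty vector. All 6 knockdown arrays were below all 5 controls, which fits their labels. Of the markers of HEK293 cells, IRS4, which encodes an abundant substrate of the same receptors in this line, averaged 11.0 ± 0.205 (SD, n = 6) in knockdown arrays and 11.1 ± 0.315 (SD, n = 5) in controls. NEFL and LIN28B were also well above the dim level, while 3 of the 7 measured markers averaged below 8.2. Every measured gene of the fibroblast list (6), the endothelial list (4), the hepatocyte list (3) and the blood list (1) averaged below 8.2, and of the carcinoma list only EPCAM was above it. The mean over each array's 3000 brightest genes was 9.26 ± 0.0447 (SD, n = 6) in knockdown arrays and 9.32 ± 0.0411 (SD, n = 5) in controls, with 3 knockdown arrays below the dimmest control. All 3 shRNA B arrays, shRNA A replicate 3 and no control array carry a suffix in the array name, whose meaning is not given in the sources used here.

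IGFBP2 and IGFBP5, the binding protein genes with the lowest differences, are neighbouring protein-coding genes on opposite strands of chromosome 2, so the 250 bases upstream of each RefSeq gene start are shown. The build is GRCh38.p14, the IGFBP2 window is chr2:216632578-216632827 on the plus strand and the IGFBP5 window is chr2:216695550-216695799 on the minus strand. Both are written 5′ to 3′ along the gene, in lower case, with GGGCGG, the core letters of a GC box, in capitals where found on either strand.
IGFBP2: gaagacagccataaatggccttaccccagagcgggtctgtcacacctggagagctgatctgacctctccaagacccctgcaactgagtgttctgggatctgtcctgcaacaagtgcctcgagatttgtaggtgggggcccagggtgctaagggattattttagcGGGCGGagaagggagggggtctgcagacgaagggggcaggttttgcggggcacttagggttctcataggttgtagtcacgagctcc
IGFBP5: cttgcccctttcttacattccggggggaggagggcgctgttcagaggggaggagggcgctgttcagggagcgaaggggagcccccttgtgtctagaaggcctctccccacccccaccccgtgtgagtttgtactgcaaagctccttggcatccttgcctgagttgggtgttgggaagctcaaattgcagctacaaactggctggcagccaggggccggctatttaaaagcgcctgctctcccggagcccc
GGGCGG occurs once in the IGFBP2 window and is not among the letters of the IGFBP5 window. It was found on either strand in 42.6% of 35116 RefSeq promoter windows of the same length. Of the 10 members, 9 have a window in this RefSeq table, and IGFBP7 is the other. The count of GGGCGG is 2 for IGF1R, 6 for IGF2R, 4 for INSR, 4 for IRS1 and 2 for IGFBP3, with 1 each for IGFBP4 and IGFBP6. The letters TATAAA, searched on both strands, were found in the window of IGFBP4 alone of the 9, and in 10.7% of all windows. TGTTTAC, the letters of a FOXO element, was found in the window of IGFBP6 alone of the 9, and in 2.98% of all windows. Only these exact letters were searched.

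IGFBP2 was the one member whose knockdown arrays all lay apart from the controls. Its protein binds both IGFs and is one of the main binding proteins of serum and of many tumour lines. IGFBP2 had gene values of 8.81, 8.86 and 8.82 with shRNA A and 8.82, 8.85 and 8.84 with shRNA B. In the controls IGFBP2 gave 9.23, 9.05 and 9.15 with the GFP shRNA and 9.29 and 9.02 with the empty vector. The highest knockdown array was below the lowest control, and the 6 knockdown arrays spanned a narrower range than the arrays of either control construct.

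The mean of IGFBP2 was 8.83 ± 0.0198 (SD, n = 6) in knockdown arrays and 9.15 ± 0.116 (SD, n = 5) in controls, a difference of -0.313 ± 0.0545 (SE, limma). By construct IGFBP2 averaged 8.83 ± 0.0260 with shRNA A, 8.84 ± 0.0156 with shRNA B, 9.14 ± 0.0901 with the GFP shRNA (SD, n = 3 each) and 9.15 ± 0.193 with the empty vector (SD, n = 2). After taking each array's median off the linear signal, IGFBP2 averaged 217 ± 6.24 units in knockdown arrays and 329 ± 45.8 units in controls, so the knockdown arrays held 65.9% of the control signal. That share was 65.5% for shRNA A and 66.3% for shRNA B.

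Ranked by the difference, IGFBP2 stood at place 56 from the lowest of 14579 genes. Over all genes, 327 (2.24%) had knockdown and control arrays that did not overlap, 295 of them lower in the knockdown (2.02%), and IGFBP2 was 1 of the 8 members measured. IGFBP2 was also among the 27 genes (0.185%) that passed as lower in the fit over all genes, at an adjusted p under 0.05 by limma, beside 5 (0.0343%) that passed as higher. IGFBP2 passed in 6 of 21 alternatives, and did not with the name suffix as a block, where 0 genes passed, nor with most single arrays left out. The count of 32 genes ran between 2 and 47 with arrays left out. These members were picked with this comparison known, so the counts are a description. Just inside that threshold was TMEM161A, at -0.275, and just outside it was SLC25A1, at -0.465.

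The lower IGFBP2 value was seen along the measured part of the gene, though not to the same depth. Probe set 2527261 averaged 9.11 ± 0.0504 (SD, n = 6) in knockdown arrays and 9.55 ± 0.149 (SD, n = 5) in controls, a difference of -0.437 ± 0.0724 (SE). Probe set 2527262 averaged 7.99 ± 0.0893 in knockdown arrays and 8.40 ± 0.132 in controls. In both, all 6 knockdown arrays were below all 5 controls.

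Probe set 2527263, the brightest of IGFBP2, averaged 9.85 ± 0.112 in knockdown arrays and 10.1 ± 0.0590 in controls. Its groups overlapped through shRNA A replicate 1, at 10.1, while the other 5 knockdown arrays were between 9.74 and 9.88 and the controls between 10.0 and 10.2. Probe set 2527265 averaged 8.56 ± 0.0695 in knockdown arrays and 8.75 ± 0.0931 in controls, and overlapped through shRNA B replicate 2, at 8.67, against 8.66 in the lowest control. Another probe set, 2527264, was too dim for the gene value, and averaged 7.70 ± 0.126 in knockdown arrays and 7.92 ± 0.0535 in controls with no overlap. Of the other 2 probe sets of the gene, 2527254 had no estimate on any array and 2527255 had one on 2 arrays.

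**Figure D1:**
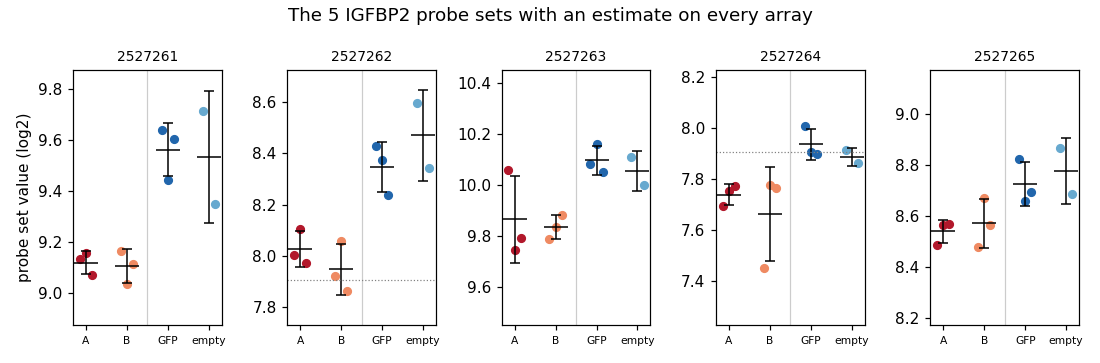
Probe set values (log2, vertical axis, each panel spanning 1 unit) of the 5 IGFBP2 probe sets with an estimate on all 11 arrays, by construct (shRNA A, shRNA B, GFP shRNA and empty vector), with points for arrays, horizontal bars for means and error bars for the SD; the dotted line is the floor for dim probe sets, at 7.91. The knockdown arrays lie below the controls in all 5 panels on average, and without overlap in 2527261, 2527262 and 2527264.

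The splicing index, which is a probe set value less the value of its gene on that array, was used for unequal change within a gene. For IGFBP2 it differed by -0.124 ± 0.0361 (SE) at probe set 2527261 and by 0.124 ± 0.0334 (SE) at 2527265. These differences mirror each other by construction, because with 4 probe sets the gene value is the mean of the middle ones.

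The brightness of an array moved with IGFBP2. Over the 11 arrays the correlation of IGFBP2 with the mean of the 3000 brightest genes was 0.753. After the mean of each construct was taken off, the correlation was 0.559. In both, the 2 measures come from the same arrays, so each pair of values shares the labelling and scan of its array. The part of brightness in the IGFBP2 difference was not tested. After quantile normalization, which gives all arrays one distribution, IGFBP2 ran between 8.81 and 8.89 in knockdown arrays and between 9.05 and 9.29 in controls. The median difference over all genes was -0.0129 then, against -0.0163 before. The IGFBP2 difference was -0.296 after quantile normalization and -0.252 after cyclic loess. Over the arrays without the name suffix alone it was -0.313 ± 0.0871 (SE), from shRNA A replicates 1 and 2 and the 5 controls. That fit held no shRNA B array. Without the filter on dim probe sets, which lets 2527264 in, the IGFBP2 gene value is that of the middle probe set and the difference was -0.189. The groups then overlapped, with 8.672 in the highest knockdown array and 8.659 in the lowest control.

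**Figure D2:**
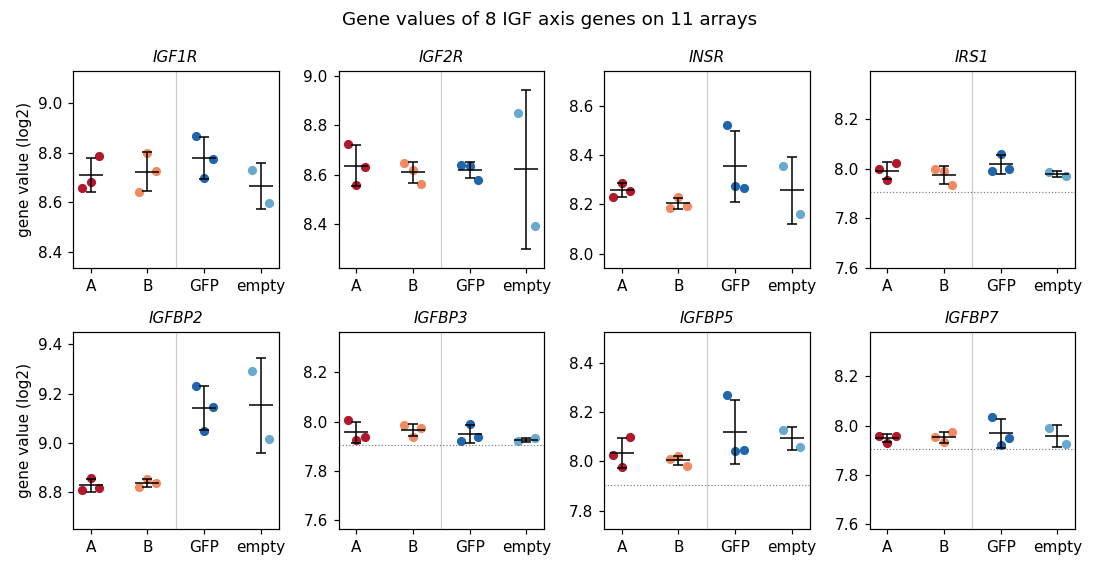
Gene values (log2, vertical axis, each panel spanning 0.8 units) of the 8 measured members by construct (shRNA A, shRNA B, GFP shRNA and empty vector), with points for arrays, horizontal bars for means and error bars for the SD; the dotted line is the floor for dim probe sets, at 7.91. IGFBP2 is the panel in which all knockdown arrays lie below all controls, and IRS1, IGFBP3 and IGFBP7 lie near the floor.

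The receptors overlapped between the groups. IGF1R, the main signalling receptor for both ligands, had gene values of 8.66, 8.68 and 8.79 with shRNA A and 8.64, 8.80 and 8.73 with shRNA B. In the controls IGF1R gave 8.87, 8.70 and 8.77 with the GFP shRNA and 8.73 and 8.60 with the empty vector. The knockdown values lay inside the range of the controls, and the difference was -0.0171 ± 0.0534 (SE).

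IGF2R had gene values of 8.72, 8.56 and 8.63 with shRNA A and 8.65, 8.62 and 8.56 with shRNA B. In the controls IGF2R gave 8.64, 8.63 and 8.58 with the GFP shRNA and 8.85 and 8.39 with the empty vector. The empty vector arrays held both the highest and the lowest IGF2R value of the 11, and the difference between knockdown and control was 0.00374 ± 0.0648 (SE).

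INSR had gene values of 8.23, 8.29 and 8.26 with shRNA A and 8.19, 8.23 and 8.195 with shRNA B. In the controls INSR gave 8.52, 8.28 and 8.27 with the GFP shRNA and 8.35 and 8.16 with the empty vector. The highest INSR value was in GFP shRNA replicate 1, the brightest of the arrays, and the lowest in empty vector replicate 2. INSR averaged 8.23 ± 0.0374 (SD, n = 6) in knockdown arrays and 8.32 ± 0.134 (SD, n = 5) in controls, a difference of -0.0857 ± 0.0521 (SE). Across the 11 arrays INSR correlated with brightness at 0.702 and IGF1R at 0.754, and IGF2R at 0.158.

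IRS1, the adaptor that both tyrosine kinase receptors phosphorylate, was dim. IRS1 averaged 7.98 ± 0.0328 (SD, n = 6) in knockdown arrays and 8.00 ± 0.0346 (SD, n = 5) in controls, with a range of 7.93 to 8.02 in knockdown arrays and of 7.97 to 8.06 in controls.

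Within the long receptor genes single probe sets varied far more than the gene value. The 39 probe sets of IGF1R split into 18 with a lower and 21 with a higher knockdown mean, and the 53 of IGF2R into 28 lower and 25 higher. Of the 31 INSR probe sets, 27 had the lower mean in the knockdown (87.1%), with a median difference of -0.0705 and a range of -0.24 to 0.0529. In IRS1 that was 10 of 13 probe sets. Over all probe sets in gene values, 61.5% had the lower mean in the knockdown. Probe sets of one gene come from the same RNA on the same arrays and are no replicates of the condition.

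The INSR probe set 3848264 had values of 8.01, 7.95 and 7.98 with shRNA A and 7.86, 7.84 and 7.92 with shRNA B. In the controls it gave 8.195, 8.08 and 8.16 with the GFP shRNA and 8.21 and 8.19 with the empty vector. The groups did not overlap, and the difference was -0.24 ± 0.0358 (SE), the lowest in the gene. Its splicing index differed by -0.154 ± 0.0550 (SE), with overlapping groups.

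In IGF1R the probe set with the highest difference in splicing index was 3610887, at 0.213 ± 0.0803 (SE), and the lowest was 3610862, at -0.118 ± 0.0530 (SE). In IGF2R the highest was 2934367, at 0.288 ± 0.113 (SE), whose values reached 9.33 in shRNA A replicate 3 and was 8.05 in empty vector replicate 2. The lowest of IGF2R was 2934363, at -0.223 ± 0.114 (SE). INSR had its highest at 3848252, with 0.139 ± 0.0677 (SE). IRS1 ran between -0.194 ± 0.148 (SE) at 2602046 and 0.0983 ± 0.0675 (SE) at 2602040.

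Of the 159 member probe sets, 0 passed in splicing index between knockdown and control, where 7 of 221964 (0.00315%) passed by limma and 26097 had an unadjusted p under 0.05. Groups did not overlap in the splicing index of 2 member probe sets, which compares with 1.44% of all. These were 3610904 of IGF1R, whose index was 0.410 to 0.526 in knockdown arrays and 0.196 to 0.344 in controls, and 3848299 of INSR. Both were named after their values were seen.

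**Figure D3:**
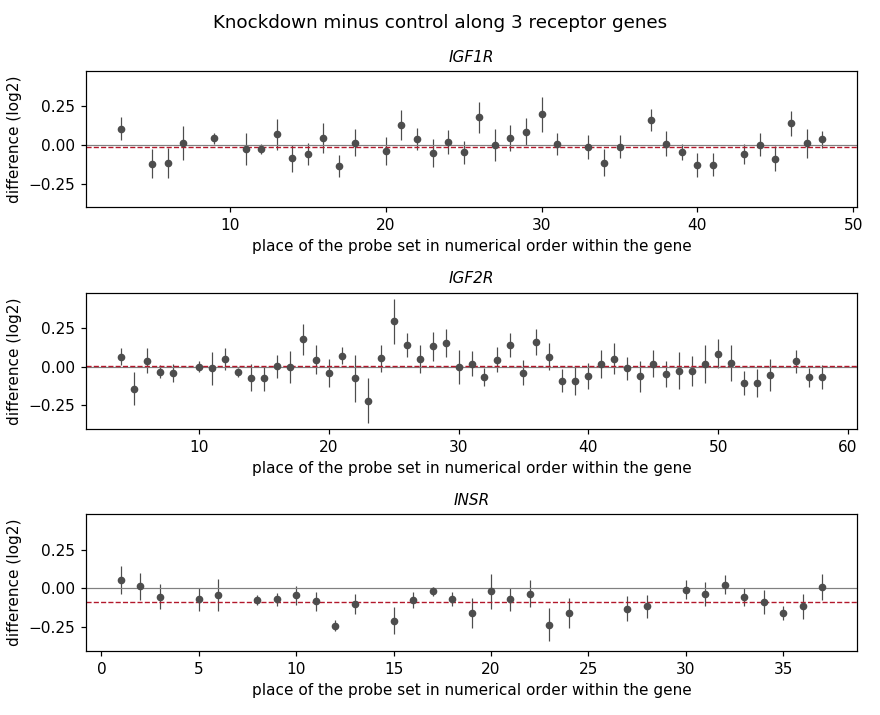
Knockdown minus control difference (log2) of each probe set used in IGF1R, IGF2R and INSR, with the SE, against the probe set's place in numerical order within the gene; the dashed line is the difference of the gene value. The differences of IGF1R and IGF2R lie on both sides of 0, and 27 of the 31 of INSR lie below it.

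The gene values of IGFBP3, IGFBP5 and IGFBP7 lay near the dim level, though single probe sets were brighter, and none of these gene values separated the groups. IGFBP5, a binding protein of bone, kidney and muscle that attaches to the extracellular matrix, had gene values of 8.03, 7.98 and 8.10 with shRNA A and 8.01, 8.02 and 7.98 with shRNA B. In the controls IGFBP5 gave 8.27, 8.04 and 8.05 with the GFP shRNA and 8.13 and 8.06 with the empty vector. Only shRNA A replicate 3 lay within the control range, and GFP shRNA replicate 1 stood above the rest.

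The difference of IGFBP5 was -0.0895 ± 0.0363 (SE), and 9 of its 10 probe sets used had the lower mean in the knockdown. On the linear scale above the array median, IGFBP5 averaged 20 ± 8.02 units in knockdown arrays and 37.1 ± 19.2 units in controls (SD, n = 6 and 5). IGFBP5 correlated with brightness at 0.716 over the 11 arrays, and the part of brightness in its difference was not tested. Its splicing index differed by between -0.0799 ± 0.0663 (SE) at 2598835 and 0.0980 ± 0.0445 (SE) at 2598829.

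IGFBP3, the main carrier of IGFs in serum, ran between 7.93 and 8.01 in knockdown arrays and between 7.92 and 7.99 in controls, a difference of 0.0210 ± 0.0158 (SE). All 5 of its probe sets used had the higher mean in the knockdown, by between 0.00169 and 0.115. They were 5 of 18 on the array, most of the others being dim. Of those used, 3049301 met the floor of 7.906 through its knockdown mean of 7.93, while its control mean was 7.901. The shared direction thus depends in part on the filter. Over the 14 IGFBP3 probe sets with an estimate on all arrays, the difference of the median was -0.00569. Probe set 3049306, the brightest of IGFBP3, averaged 9.07 ± 0.300 (SD, n = 6) in knockdown arrays and 8.96 ± 0.109 (SD, n = 5) in controls. The 2 shRNAs differed there, with 9.22 to 9.42 for shRNA A, above all controls, and 8.69 to 9.01 for shRNA B. The controls were between 8.84 and 9.13.

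IGFBP7, a related secreted protein that binds IGFs weakly, ran between 7.93 and 7.98 in knockdown arrays and between 7.92 and 8.04 in controls, a difference of -0.0144 ± 0.0176 (SE). The differences of its 4 probe sets used were between -0.0257 and -0.000208. Its probe set 2770474, below the floor, was higher in all knockdown arrays, at 7.92 ± 0.00740 (SD, n = 6), than in controls, at 7.85 ± 0.0267 (SD, n = 5). That probe set was named after its values were seen.

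IGFBP4 and IGFBP6, binding proteins that mainly restrain IGF action, each had 2 probe sets at or above the floor where a gene value needs 4. The brightest of IGFBP4, 3721032, averaged 8.80 ± 0.141 (SD, n = 6) in knockdown arrays and 8.79 ± 0.160 (SD, n = 5) in controls. The brightest of IGFBP6, 3415750, averaged 8.18 ± 0.133 in knockdown arrays and 7.93 ± 0.204 in controls. It was 8.03 to 8.38 in knockdown arrays and 7.69 to 8.22 in controls, so the groups overlapped. Over all probe sets with an estimate, the median was 7.71 ± 0.00867 in knockdown arrays and 7.70 ± 0.0498 in controls for IGFBP4. For IGFBP6 it was 7.81 ± 0.0795 in knockdown arrays and 7.81 ± 0.0963 in controls.

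Taking the members as a group, 6 of the 8 gene values had the lower mean in the knockdown, against 67.1% of all genes, and their median difference was -0.0182 against -0.0163 over all genes. Among the 159 probe sets 100 had the lower mean (62.9%, against 61.5% of all). All 6 knockdown arrays were below all controls in 3 probe sets, which is 1.89% of those used, where the share over all probe sets was 1.65%, and above all controls in 0, where the share was 0.203%. These shares of the members were near those of the whole array. The 3 were 2527261 and 2527262 of IGFBP2 and 3848264 of INSR.

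**Figure D4:**
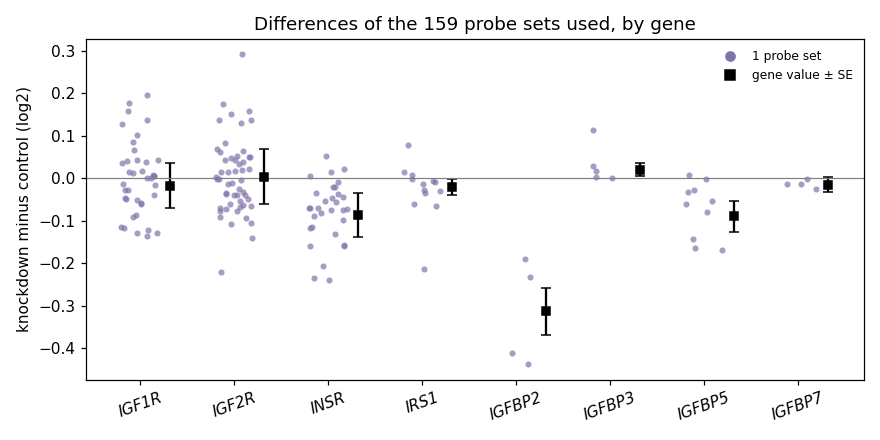
Knockdown minus control difference (log2, vertical axis) of each member probe set used, by gene, with points for probe sets and a square with its SE for the gene value. The 4 points of IGFBP2 lie between -0.437 and -0.189, a range reached by single probe sets of IGF2R, INSR and IRS1, and those of IGF1R and IGF2R scatter around 0.

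The next question was whether the 2 shRNAs acted differently on the members. The difference itself uses no control value. Its SE, p-value and interval rest on 1 estimate of spread shared by all 11 arrays, controls included. The difference of gene values, shRNA B minus shRNA A, did not pass for any of the 8 members by limma (adjusted p of 0.998 to 1, and 0 at an unadjusted p under 0.05), nor for any of 14579 genes (0%), of which 652 had an unadjusted p under 0.05. IGFBP2 differed by 0.00891, with a 95% interval of -0.159 to 0.177, and INSR by -0.0532, with an interval of -0.204 to 0.0975. For IGF1R the interval was -0.141 to 0.168 and for IGF2R -0.226 to 0.173. IRS1 had the interval -0.0703 to 0.0351, IGFBP3 -0.0393 to 0.0554, IGFBP5 -0.140 to 0.0798 and IGFBP7 -0.0495 to 0.0584. The intervals bound how far the gene values may differ between the shRNAs and do not show that the shRNAs acted alike. IRS1, IGFBP3 and IGFBP7 lay near the floor, where differences may be compressed, so their narrow intervals do not bound single brighter probe sets.

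Single probe sets differed more between the shRNAs, though 0 of the 159 passed in splicing index, and 0 of 221964 (0%) over the array. At an unadjusted p under 0.05 there were 13 member probe sets (8.18%), where 12064 of all (5.44%) were. The lowest difference was that of IGFBP3 probe set 3049306, whose splicing index differed by -0.507 ± 0.0879 (SE, adjusted p = 0.885 by limma). Its values were 8.77, 8.69 and 9.01 with shRNA B and 9.42, 9.32 and 9.22 with shRNA A, which did not overlap. The controls were 8.84 to 8.96 with the GFP shRNA and 8.93 and 9.13 with the empty vector. Of the 5 controls, 4 lay within the range of shRNA B, and none reached that of shRNA A.

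INSR probe set 3848297 gave 8.59, 8.64 and 8.74 with shRNA B and 8.38, 8.41 and 8.42 with shRNA A, with a splicing index difference of 0.307 ± 0.0579 (SE, adjusted p = 0.885 by limma). The 2 shRNAs did not overlap there either, and the controls, between 8.39 and 8.695, overlapped both. Both probe sets were named after their values were seen. All shRNA B arrays and 1 of 3 shRNA A arrays carry the name suffix, and that shRNA A array lay nearest to shRNA B in both probe sets. The part of the suffix in these differences was not tested.

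The control constructs were compared in the same way. GFP shRNA minus empty vector did not pass for any member by limma (adjusted p of 0.948 to 1, and 0 at an unadjusted p under 0.05), where 1 of 14579 genes passed (0.00686%). IGFBP2 differed by -0.0111, with a 95% interval of -0.199 to 0.177, IGF1R by 0.115 (-0.0573 to 0.287) and INSR by 0.0963 (-0.0723 to 0.265). These values turn on single arrays of the empty vector. IGF2R was at -0.00270 over all arrays, 0.225 without empty vector replicate 1 and -0.231 without replicate 2. IGFBP2 was at 0.126 without replicate 1 and -0.148 without replicate 2, INSR at 0.192 and 0.000198, and IGF1R at 0.181 and 0.0486.

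**Figure D5:**
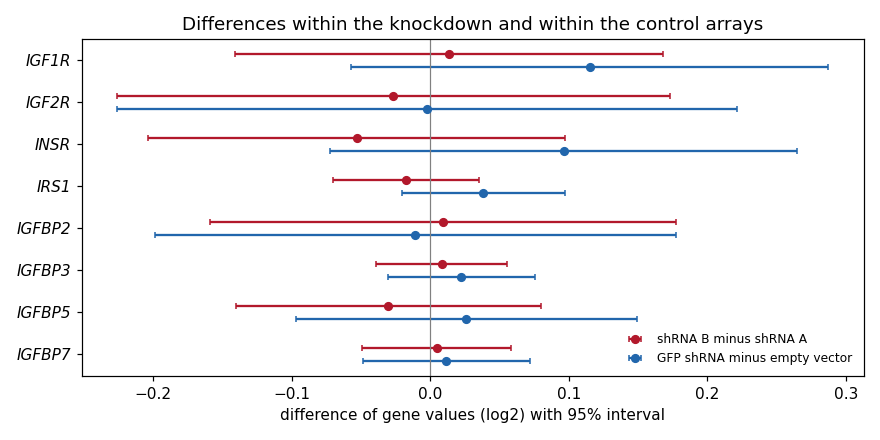
Differences of gene values (log2, horizontal axis) with 95% intervals from limma for the 8 measured members, with shRNA B minus shRNA A above GFP shRNA minus empty vector in each row. All 16 intervals include 0, and those of IRS1, IGFBP3 and IGFBP7, whose gene values lie near the floor, are the narrowest.

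The rest of the pathway was read from 4 lists of genes that were not picked by their values here, though earlier results were known. No gene of the 4 lists passed between knockdown and control by limma. Over all genes 0.219% passed, 15.2% had an unadjusted p under 0.05 and 67.1% had the lower mean in the knockdown.

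Of the other genes of the IGF system, 17 of 19 were measured, 13 with the lower mean in the knockdown and 4 with the higher, with a median difference of -0.00919 and 4 at an unadjusted p under 0.05. STC2, stanniocalcin 2, which inhibits the proteases that free IGFs from their binding proteins, averaged 8.06 in knockdown arrays and 8.26 in controls, a difference of -0.202 ± 0.0423 (SE, adjusted p = 0.0554 by limma). GRB10, an adaptor that dampens signalling by both tyrosine kinase receptors, differed by -0.117 ± 0.0490 (SE). The ligand genes were at the dim level, IGF1 with 7.954 in knockdown arrays and 7.949 in controls, and IGF2 with 7.945 in knockdown arrays and 7.954 in controls. IGFBP1, the neighbour of IGFBP3 on chromosome 7, and IGFALS had no gene value.

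In the PI3-kinase, AKT and mTOR arm 23 of 28 genes were measured, 18 with the lower mean and 5 with the higher, with a median of -0.0494 and 5 at an unadjusted p under 0.05. AKT1, the kinase that carries the signal from PI3-kinase, differed by -0.258 ± 0.0758 (SE), and PIK3R2, a regulatory subunit of PI3-kinase, by -0.228 ± 0.0693 (SE). Among adaptors and the MAP kinase arm 16 of 20 genes were measured, 14 lower and 2 higher, with a median of -0.0785 and 3 at an unadjusted p under 0.05. MAPK3, the kinase ERK1, differed by -0.217 ± 0.0631 (SE) and MAP2K1, which activates it, by -0.183 ± 0.0494 (SE).

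Of the genes for mannose 6-phosphate sorting and lysosomal enzymes, the cargo side of IGF2R, 14 of 16 were measured, 13 lower and 1 higher, with a median of -0.0648 and 4 at an unadjusted p under 0.05. The acid glucosidase gene GAA differed by -0.141 ± 0.0585 (SE) and the cathepsin gene CTSB by -0.125 ± 0.0556 (SE). The medians of the 4 lists compare with -0.0163 over all genes, in arrays whose bright genes were dimmer in the knockdown, and the part of brightness in them was not tested.

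The genes most like IGFBP2 across the 11 arrays were XRCC3 (Pearson r = 0.973), BARD1 (0.963), C2CD2L (0.957), CD55 (0.955) and FKBP1B (0.952), a measure that includes the distance between knockdown and control. After the construct means were taken off, they were MRPS5 (0.975), FAT1 (0.971), ISYNA1 (0.969), TLN1 (0.969) and HTR1D (0.965). The 2 sets of 5 have no gene in common, and none of the 10 passed between knockdown and control. They are the highest among all measured genes over 11 arrays, and the values of an array share its labelling and brightness. Among the members, after the construct means were taken off, INSR was nearest to IGFBP2 (0.842), followed by IGFBP7 (0.739), IGF1R (0.701), IGF2R (0.701) and IGFBP5 (0.548), with IRS1 at -0.288 and IGFBP3 at -0.505.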

How the data were processed

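The deposited table holds log2 values of 1399022 probe sets of the Affymetrix Human Exon 1.0 ST array on 11 arrays. Software, normalization and genome build were not given in the sources used here. Estimates are missing for 13190 to 15431 probe sets per array. Precision is limited by the number of arrays. Each main fit used all samples, and some alternatives left arrays out. Genes were assigned through the array's annotation, in which 355799 probe sets carried 1 symbol, 15195 several (not used) and 1028028 were not listed. Symbols were updated to GRCh38.p14 (RefSeq): 16450 of 19536 were current, 2893 were updated and 193 kept.

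A probe set was used if it had 1 symbol, an estimate on all arrays and a mean at or above the table median of 7.91, and a gene needed 4 of them. Member probe sets just above this floor were IGFBP5 2598829 (7.913), IGFBP4 3721033 (7.914) and IGFBP3 3049301 (7.917), and just below it IGFBP4 3721034 (7.905), IRS1 2602074 (7.899) and IGF1R 3610845 (7.889).

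Differences were fitted with limma 3.58.1 (lmFit, eBayes with a trend) in R 4.3.3, with version 1.17.8 of the data.table package, over all 11 arrays. Knockdown and control were 2 levels, and the constructs 4. Adjusted p-values (Benjamini-Hochberg) run over all genes or probe sets, and 0.05 was the threshold. The fits were tested on simulated data. The members and lists were chosen with earlier results of these data known. The rule named, per member, the probe sets with the lowest and highest difference in splicing index, and per list the 2 largest absolute differences where no gene passed. Alternatives covered normalization, filter, gene summary, variance trend, scale, blocks and arrays left out.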

Additional observations from a re-analysis of the deposited data

Results flagged for a closer look

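The IGFBP3 gene value of GFP shRNA replicate 2, at 7.99, stood apart from the other 4 control arrays, which lay between 7.92 and 7.94. It was the 1 value of this kind among 20 groups of member values examined, where chance gives about 1 in 20. The value is within 0.1 of the level at which dim probe sets crowd.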

How the results depend on the processing

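The IGFBP2 difference between knockdown and control had the same sign in all 21 alternatives that gave a value, between -0.424 (background-subtracted scale) and -0.189 (no filter on dim probe sets), and IGFBP2 was among the genes that passed in 6 of them. It did not pass when any one of the knockdown arrays, empty vector replicate 1 or GFP shRNA replicates 1 or 3 was left out. With a floor higher by 0.5 it kept fewer than 4 probe sets and had no value. No member passed between the shRNAs or between the controls, and no member probe set in splicing index, in any alternative run.

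The genes that passed between knockdown and control by limma numbered 32 (5 higher, 27 lower). They were 89 without the variance trend, 254 with the higher floor, 137 with gene values as means, 19 without the filter and 7 after cyclic loess (5 higher, 2 lower). None passed with the name suffix as a block (0, with 1282 at an unadjusted p under 0.05), in arrays without the suffix (0, with 1186) or when both extreme arrays of the first principal component were left out (0, with 1708). Leaving out each array gave 2 to 47, with 2 without GFP shRNA replicate 3, and 47, within 1.5 times, without empty vector replicate 2. The count also fell by over 1.5 times without any other single array, to 3 to 12.

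Of 15 array pairs with the same replicate number 5 correlated over 0.1 (mean r 0.0402), as did 6 of 30 other pairs (mean r -0.0202). These counts cannot decide whether equal numbers pair the arrays, since the correlations of the 2 empty vector arrays mirror each other. With the replicate number as a block 10 genes passed, IGFBP2 not among them, with 0 between the control constructs (637 at an unadjusted p under 0.05) and 0 in splicing index (25393). Between the control constructs 1 gene passed, and 0 did without the trend (734), without the filter (903) or with the higher floor (318), and 0 to 2 with arrays left out. Between the shRNAs 0 genes passed and 0 to 1 with arrays left out, the 1 without shRNA A replicate 2.

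In splicing index 7 probe sets passed between knockdown and control, 11 without the filter, 4 with the higher floor, 2 with gene values as means and 0 with the suffix as a block (16385). Leaving out each array gave 0 to 95, the 95 without GFP shRNA replicate 1, and each other array left out gave 0 to 4. Between the shRNAs 1 probe set passed with gene values as means, in place of 0. The causes of these shifts were not tested. Of 728 other member values under alternatives, 708 moved by less than 1 SD between arrays.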
